A study of Mus musculus with 12 samples.

Results

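Receptors for extracellular nucleotides and adenosine, and the surface enzymes that turn the former into the latter, were followed in the mouse brain after traumatic brain injury (TBI) and after TBI with zileuton. The 10 genes were chosen by name and matched by symbol to the Ensembl identifiers of the deposited tables. They comprised the ATP-gated channels P2rx4 and P2rx7, the G protein-coupled nucleotide receptors P2ry2, P2ry6 and P2ry14, the ecto-enzymes Entpd1 and Nt5e, and the adenosine receptors Adora1, Adora2a and Adora3. All 10 were found, among 35697 identifiers in the table of sham and injured brain and 55637 in the table of the zileuton experiment, and all 10 had enough reads to be tested in both.

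ATP is kept inside healthy cells at a high concentration and reaches the extracellular space when cells are damaged or stressed, where it is read by P2X channels and P2Y receptors. Ecto-nucleotidases on cell surfaces then remove its phosphates, Entpd1 (CD39) as far as AMP and Nt5e (CD73) from AMP to adenosine, and adenosine acts on receptors of its own. In the brain, several P2X and P2Y receptors are known for how microglia detect injured cells, Adora1 for damping transmitter release from neurons, and Adora2a for its high level in the medium spiny neurons of the striatum.

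The animals were adult male C57BL/6J mice, wild type in all groups. SH_WT mice had the sham operation and TBI_WT mice a controlled cortical impact, with brain RNA taken at 7 days, and both groups carry a batch date in 2018. TBI_7d mice had the impact at the same interval and Zi_7d mice the impact followed by daily intraperitoneal zileuton, an inhibitor of 5-lipoxygenase, at 10 mg per kg in corn oil, and both groups carry a batch date in 2022. Each group had 3 libraries. The paper describes the tissue sequenced in both experiments as pericontusional, and it is called brain here for short. The zileuton experiment had no sham group, the labels of TBI_7d name no vehicle, and the source labels of the Zi_7d mice give 7, 8 and 9 days where the library names give 7. No source says whether tissue of several mice was pooled, and the columns of the 2022 table, numbered 2, 3 and 6 in each group, could be tied to a group but not to a single label.

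Total counts per library lay between 42929862 and 48684674 in 2018 and between 27845562 and 35453257 in 2022. Of all gene counts between 1 and 20 in the 2018 libraries, 62.3% to 64.4% were even. The 2022 counts were estimates, and those that were not whole were scored as not even. Their share of 29.2% to 30.8% thus cannot be set against that of 2018. Whether the mates of a read pair were counted separately was not tested. Gfap, the intermediate filament of reactive astrocytes, stood at 141.5 to 220.9 CPM in sham brain and at 2241 to 2616 CPM after injury, and Cd68, a lysosomal protein of phagocytes, at 6.99 to 8.97 CPM and 77.5 to 130.8 CPM. Xist, a transcript of female cells, was read at 18.5 to 23.5 CPM in the 2018 libraries and at no more than 0.197 CPM in those of 2022, while the Y-linked Kdm5d was present in all 12 libraries at 18.1 CPM or more. CPM are counts set against the library total, computed here with TMM scaling, which corrects the totals for differences in composition.

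The genes lie on 7 chromosomes. By their Ensembl identifiers in GENCODE M21, which describes GRCm38 and not the GRCm39 build of the submitters' processing notes, P2rx7 (chr5:122643911-122691432) and P2rx4 (chr5:122707544-122729738) follow each other on the plus strand of chromosome 5, and P2ry6 (chr7:100937630-100974649) and P2ry2 (chr7:100996568-101012866) on the minus strand of chromosome 7. P2ry14 (chr3:59113855-59153618, minus strand) lies inside Med12l of the opposite strand without sharing exon bases. Adora3 (chr3:105870858-105908926, plus strand) shares 779 exon bases with Tmigd3 of the same strand, which had at most 3 counts in any library, and Adora1 (chr1:134199223-134235431, minus strand) shares 1162 with Mybph of the opposite strand, which had at most 32. Entpd1 (chr19:40612366-40741602), Nt5e (chr9:88327197-88372092) and Adora2a (chr10:75316877-75334784) are on the plus strand. No source says whether reads were counted by strand.

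Promoter windows from RefSeq on GRCm38.p6, running from 250 bases before to 50 bases from the first transcribed base, were at hand for 8 of the 10 genes, in 15 windows, and for neither Adora2a nor P2ry6. They were searched on both strands for 5 motifs chosen after the data had been seen. The PU.1 motif GAGGAAGT, bound by a transcription factor of myeloid cells, was in 2 of the 15 windows and in 3.20% of 32851 windows of all genes, and the AP-1 motif TGANTCA in 5 of the 15 and in 7.81% of all. The IRF, NF-kB and CRE motifs were in none of the 15, and in 3.44%, 0.41% and 1.79% of all windows. The AP-1 matches lay in Adora3, in P2rx7, in 2 windows of P2ry14 (from bases -202 and -144) and in 1 of Adora1 (from base -104). N stands for any base, and the matches in Adora1 and in P2ry14 from base -144 read TGAATCA. The windows of P2ry2 overlap each other, as do some of P2ry14. The Adora3 window and the windows of both P2rx7 starts are shown because these genes held both motifs, and the P2rx4 window because it belongs to the channel next to P2rx7 and holds none of the 5. Capitals mark the matches on either strand.

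Adora3, chr3:105904171-105904470, plus strand, AP-1 from base -98 and PU.1 from base -30:
Adora3: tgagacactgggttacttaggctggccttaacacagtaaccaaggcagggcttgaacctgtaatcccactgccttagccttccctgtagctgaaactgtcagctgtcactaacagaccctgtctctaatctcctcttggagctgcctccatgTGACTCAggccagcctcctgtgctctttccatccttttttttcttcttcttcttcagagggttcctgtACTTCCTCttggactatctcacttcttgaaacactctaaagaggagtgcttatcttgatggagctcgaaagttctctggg

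P2rx7, first start, chr5:122643677-122643976, plus strand, AP-1 from base -249:
P2rx7 first start: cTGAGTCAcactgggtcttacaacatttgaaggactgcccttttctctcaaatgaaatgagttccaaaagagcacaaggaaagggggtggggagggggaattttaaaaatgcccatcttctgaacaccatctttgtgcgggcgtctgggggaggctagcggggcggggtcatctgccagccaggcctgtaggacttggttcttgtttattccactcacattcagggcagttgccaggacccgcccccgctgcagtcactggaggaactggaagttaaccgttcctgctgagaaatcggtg

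P2rx7, second start, chr5:122650133-122650432, plus strand, PU.1 from base 3:
P2rx7 second start: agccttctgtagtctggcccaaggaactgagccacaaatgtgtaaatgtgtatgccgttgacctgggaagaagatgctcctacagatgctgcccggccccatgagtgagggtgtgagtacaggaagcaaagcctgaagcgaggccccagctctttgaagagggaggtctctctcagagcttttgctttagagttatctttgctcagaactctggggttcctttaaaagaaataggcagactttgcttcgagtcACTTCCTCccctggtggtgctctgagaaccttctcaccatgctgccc

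P2rx4, chr5:122707294-122707593, plus strand, no match:
P2rx4: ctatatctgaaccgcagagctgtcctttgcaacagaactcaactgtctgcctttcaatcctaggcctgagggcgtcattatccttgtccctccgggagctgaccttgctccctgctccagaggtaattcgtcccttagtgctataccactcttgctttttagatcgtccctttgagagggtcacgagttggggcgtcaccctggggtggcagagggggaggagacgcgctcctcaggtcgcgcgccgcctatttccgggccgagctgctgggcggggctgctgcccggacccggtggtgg

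Positions count from the first transcribed base, which is base 0. The Adora3 window had 1 CpG dinucleotide and the P2rx4 window 18, where the quartiles of all windows were 3, 7 and 20. A match is a run of letters in the window and was not related to binding here.

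The first comparison asked how these genes stood 7 days after injury. Of the 10 genes, 7 were higher in TBI_WT than in SH_WT at an adjusted p under 0.05 (edgeR's quasi-likelihood test with Benjamini-Hochberg adjustment over 19536 genes) and none was lower, where 16.8% of all genes tested were called higher and 11.2% lower. At an unadjusted p under 0.05, 0 were lower by edgeR and 1, Adora1, by DESeq2. The 7 were both P2X channels, all 3 P2Y receptors, Entpd1 and Adora3. The 10 genes were chosen with earlier results of these data known, so the shares of all genes are given as a description. In 8 of the 10, with Nt5e as the eighth, every injured library lay above every sham library, which held for 24.6% of all genes. The median log2 fold change was 1.14 over the 10 genes and 0.02 over all genes tested. P2ry6 and Adora3 had the highest fold changes, above those of 97.8% and 97.0% of all genes, and Adora1 and Adora2a the lowest.

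**Figure D1:**
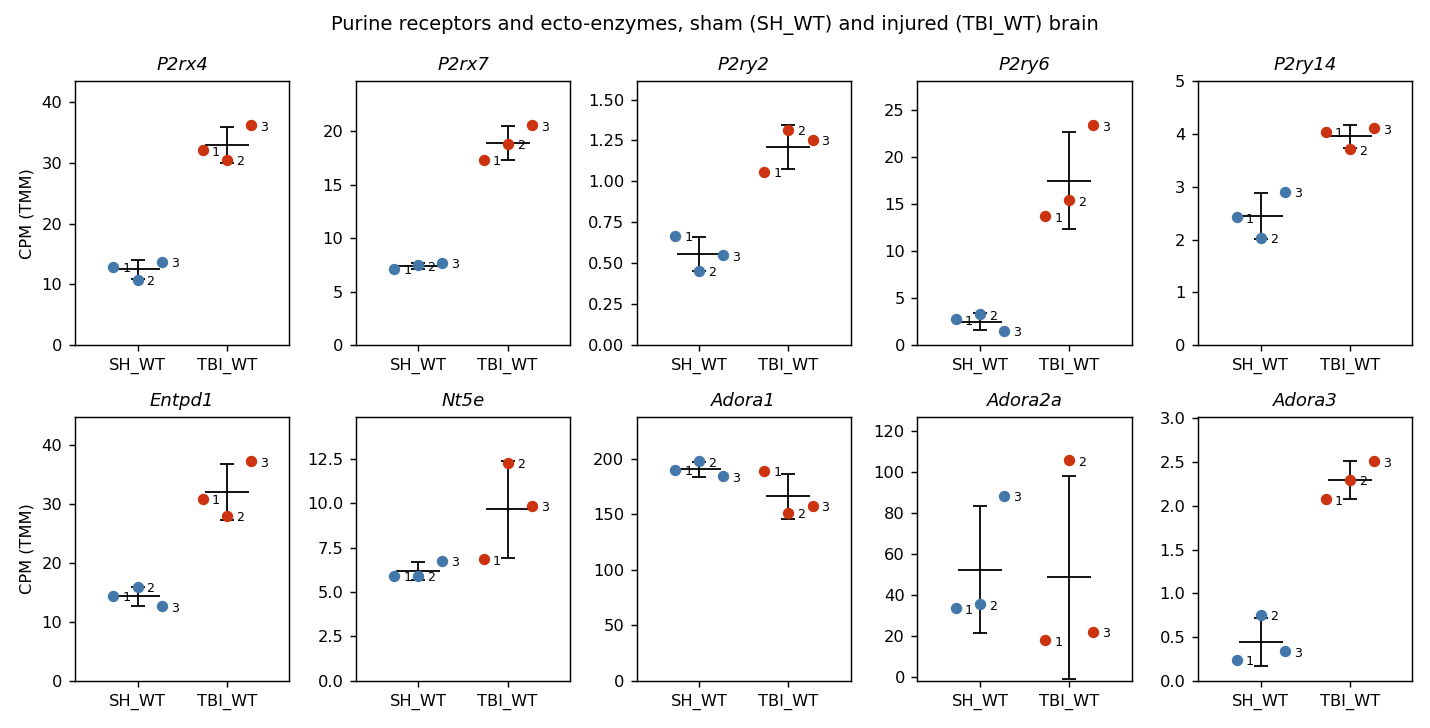
CPM (vertical axis, TMM-scaled, from 0 in all panels but that of Adora2a) of the 10 genes in the 3 SH_WT and 3 TBI_WT libraries, numbered as in the labels, with a horizontal bar for the mean and a vertical bar for the SD. The injured libraries lie above all sham libraries in 8 panels, and in those of Adora1 and Adora2a the groups overlap.

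The P2X channels rose together and by similar amounts. P2rx4, an ATP-gated cation channel known for its appearance on activated microglia, stood at 12.9, 10.8 and 13.7 CPM in the sham libraries 1, 2 and 3 and at 32.1, 30.5 and 36.2 CPM in the injured ones. The lowest injured library was thus well above the highest sham library. Its log2 fold change was 1.40 (SE 0.119, adjusted p = 6.5e-05), or 2.65-fold with a 95% interval of 2.20 to 3.19.

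P2rx7, the channel that opens at high ATP and drives release of interleukin 1 beta from myeloid cells, stood at 7.13, 7.48 and 7.68 CPM in sham brain and at 17.4, 18.8 and 20.6 CPM after injury. Its sham libraries were closely grouped, with an SD of 0.282 CPM around a mean of 7.43. It rose by a log2 fold change of 1.35 (SE 0.113, adjusted p = 6.4e-05). The calls of P2rx4 and P2rx7 were kept in each of 19 alternative analyses, with log2 fold changes of 1.08 to 1.53 and 0.93 to 1.41.

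Of the P2Y receptors, P2ry6, the receptor for UDP known for microglial phagocytosis, changed the most of the 10. It stood at 2.73, 3.26 and 1.49 CPM in sham brain and at 13.7, 15.4 and 23.4 CPM after injury. SH_WT 3 was the lowest and TBI_WT 3 the highest library. Injury changed it by 2.81 on the log2 scale (SE 0.306, adjusted p = 0.000258), or 6.99-fold with a 95% interval of 4.32 to 11.3.

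P2ry2, a receptor for ATP and UTP, was scarcely expressed, at 0.666, 0.454 and 0.547 CPM in sham brain and 1.06, 1.31 and 1.25 CPM after injury. These values rest on 21 to 30 counts per sham library and 52 to 64 per injured library. The groups did not overlap, and the log2 fold change was 1.12 (SE 0.31, adjusted p = 0.0269). The call was not kept when 1 library was left out in 5 of 6 cases (SH_WT 1, 2 or 3, TBI_WT 2 or 3), with adjusted p from 0.0502 to 0.0861. In all, 7 of the 16 alternatives that P2ry2 entered did not keep the call. The summed CPM of 8 choroid plexus markers was 1094, 22.6 and 59.5 in the sham libraries and 1250, 1365 and 1184 in the injured ones. After subtraction of group means, P2ry2 had a Pearson r of 0.78 with these markers over the 12 libraries of both tables, on the log2 CPM scale and as a description, and their part in its change was not tested.

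P2ry14, the receptor for UDP-glucose and other UDP-sugars, stood at 2.42, 2.03 and 2.90 CPM in sham brain and at 4.04, 3.72 and 4.11 CPM after injury. The injured libraries were closely spaced and all above the sham libraries. Its log2 fold change was 0.69 (SE 0.204, adjusted p = 0.0346). This call too was not kept when any library other than SH_WT 3 was left out (adjusted p from 0.0543 to 0.105) or when genes with few counts were not filtered out (adjusted p = 0.0561). In all, 9 of the 16 alternatives that P2ry14 entered did not keep the call. Med12l, in which it lies, had 771 to 1315 counts per library of 2018 against 94 to 199 of P2ry14.

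The ecto-enzymes were measured with different outcomes. Entpd1, which hydrolyses ATP and ADP and is known as a surface marker of microglia, stood at 14.5, 16.0 and 12.7 CPM in sham brain and at 30.9, 28.1 and 37.3 CPM after injury. Every injured library was well above every sham library. It rose by a log2 fold change of 1.16 (SE 0.133, adjusted p = 0.000344), and the call was kept in all 19 alternatives.

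Nt5e, the enzyme that forms adenosine from AMP, stood at 5.90, 5.90 and 6.76 CPM in sham brain and at 6.83, 12.3 and 9.84 CPM after injury. TBI_WT 1 was barely above the highest sham library, and the others were clearly higher. The log2 fold change of 0.64 (SE 0.211) fell just short of the threshold at an adjusted p of 0.0511. It passed in 6 of 19 alternatives, among them DESeq2 (adjusted p = 0.0196) and the fit without TBI_WT 1 (log2 fold change 0.84, adjusted p = 0.00845). Without TBI_WT 2 it was 0.43 (adjusted p = 0.156).

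Since the enzymes act in sequence, their levels were also set against each other per length, in FPKM, which divides a count by gene length and library size. The log2 ratio of the Nt5e level to the Entpd1 level was -1.92, -2.06 and -1.53 in sham brain and -2.80, -1.82 and -2.55 after injury. TBI_WT 2 lay among the sham libraries and the others below them. The group means differed by -0.56 (TBI_WT minus SH_WT), which did not pass an exact two-sided permutation test (p = 0.3, where 3 against 3 libraries cannot give less than 0.1).

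Of the adenosine receptors among the 10, Adora3 was called, and Adora1 and Adora2a were not. Adora3, a receptor that couples to inhibitory G proteins, stood at 0.244, 0.757 and 0.337 CPM in sham brain and at 2.07, 2.30 and 2.51 CPM after injury. The sham values rest on 11, 35 and 16 counts and the injured values on 102, 112 and 108. The log2 fold change was 2.35 (SE 0.409, adjusted p = 0.00317), with a 95% interval from 1.43 to 3.28, and all of the 16 alternatives in which the gene entered kept the call.

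Adora1, the inhibitory adenosine receptor of neurons, stood at 190, 197.9 and 184.2 CPM in sham brain and at 189.2, 151.4 and 157.8 CPM after injury. TBI_WT 1 lay within the sham values and the other injured libraries below them. Its log2 fold change was -0.20 (SE 0.0937, adjusted p = 0.15). Without TBI_WT 1 it was -0.30 and passed (adjusted p = 0.0244), without TBI_WT 2 it was -0.14 (adjusted p = 0.34) and without TBI_WT 3 -0.16 (adjusted p = 0.305).

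Adora2a, the stimulatory adenosine receptor of striatal neurons, varied more between the libraries of a group than between the groups. It stood at 33.4, 35.3 and 88.2 CPM in sham brain and at 17.9, 105.5 and 22.0 CPM after injury. SH_WT 3 and TBI_WT 2 stood apart as the high libraries of their groups. The log2 fold change was -0.11 (SE 0.649, adjusted p = 0.923), with a 95% interval from -1.58 to 1.36. It was -1.39 without TBI_WT 2 (adjusted p = 0.0363), 0.48 without SH_WT 3 (adjusted p = 0.675), and -0.79 (adjusted p = 0.0106) in a fit without either, which was chosen after the values had been seen. In that last fit 5 of the 10 genes were called higher (P2rx4, P2rx7, P2ry6, Entpd1 and Adora3) and Adora2a lower.

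The same libraries stood apart in 12 markers of striatal medium spiny neurons, of which Drd1, Drd2, Ppp1r1b and Penk are examples. The summed markers were 1457, 1337 and 2409 CPM in the sham libraries and 815.7, 2869 and 955 CPM in the injured ones, and no marker of the list was called in either direction. Set against this sum, Adora2a was at -5.45, -5.24 and -4.77 on the log2 scale in sham brain and at -5.51, -4.77 and -5.44 after injury, and the group means differed by -0.08. The ratio thus spread far less than Adora2a itself, though it too was highest in SH_WT 3 and TBI_WT 2. After subtraction of group means, the log2 CPM of Adora2a and of the summed markers had a Pearson r of 0.98 over the 12 libraries of both tables, which is given as a description. Nt5e had 0.84 and Adora1 -0.70 with the same markers. How much striatum each piece of tissue held was not recorded in the labels, and its part in these values was not tested.

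**Figure D2:**
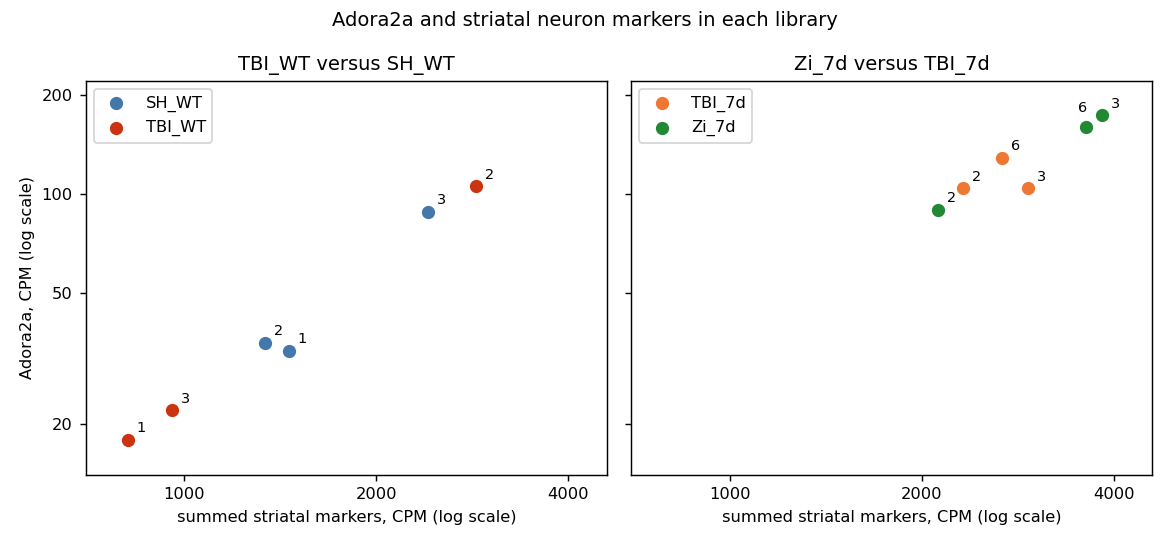
Adora2a in CPM (vertical axis, log scale) against the summed CPM of 12 striatal neuron markers (horizontal axis, log scale), 1 point per library, numbered as in the labels (2018) or in the table's header (2022). The library with the lowest marker sum, TBI_WT 1 (815.7 CPM), had the least Adora2a (17.9 CPM) and the one with the highest, Zi_7d 3 (3830 CPM), the most (173.3 CPM), while in between the order was not strict, as in TBI_7d 3 (2933 CPM of markers, 104.0 CPM of Adora2a) and TBI_7d 6 (2668 and 128.7 CPM).

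Levels of different genes can be compared per length. In sham brain the order by mean FPKM was Adora1 (32.4 ± 1.18, SD, n = 3), Adora2a (16.8 ± 10.1), Entpd1 (2.52 ± 0.291), P2rx4 (1.74 ± 0.21), P2rx7 (1.22 ± 0.0524), P2ry6 (0.848 ± 0.308), Nt5e (0.706 ± 0.0584), P2ry14 (0.218 ± 0.0391), P2ry2 (0.139 ± 0.0259) and Adora3 (0.118 ± 0.0723). After injury Adora1 (29.2 ± 3.35) was still the highest, and Adora2a came second by its mean (16.3 ± 16.9), which rests on TBI_WT 2. Adora2a was at 5.91, 35.8 and 7.20 FPKM in the injured libraries, and in TBI_WT 3 P2ry6 (8.12 FPKM) was above it. P2ry6 (6.15 ± 1.75) stood beside Entpd1 (5.84 ± 0.77) and P2rx4 (4.77 ± 0.353) and above P2rx7 (3.22 ± 0.263) and Nt5e (1.14 ± 0.338), and Adora3 (0.626 ± 0.0578) above P2ry14 (0.364 ± 0.013) and P2ry2 (0.313 ± 0.0382). In sham brain P2ry6 and Nt5e, P2ry14 and Adora3, and P2ry2 and Adora3 differed by less than the sum of their SDs. After injury this held for Adora2a with each of the other genes, among P2ry6, Entpd1 and P2rx4, and for P2ry14 and P2ry2. Of the summed FPKM of the 4 adenosine receptors, Adora2b included, Adora1 made up 71.0%, 71.1% and 50.8% in sham brain and 77.0%, 40.5% and 71.2% after injury. The low libraries were again SH_WT 3 and TBI_WT 2, and the mean shares differed by -1.38 percentage points (exact permutation test, two-sided, p = 1.0). The median share of Adora3 was 0.144% in sham brain and 1.31% after injury.

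Around the 10 genes, 45 other genes of nucleotide release, sensing, breakdown and adenosine handling were followed in 7 lists by role. Of the 38 that could be tested, 16 were higher after injury and none was lower at an adjusted p under 0.05 (edgeR). Over all genes tested, 16.8% were called higher and 11.2% lower. These lists too were chosen with earlier results of these data known. The median log2 fold change of the 38 was 0.43. At an unadjusted p under 0.05, 2 of them were lower, P2rx3 and Entpd6, and DESeq2 called 0 lower after adjustment. Besides P2rx4 and P2rx7, none of the other 4 P2X channels tested was called. P2rx3 was at 1.64 CPM in sham brain and 1.04 CPM after injury (log2 fold change -0.66, adjusted p = 0.102), and P2rx1 had a log2 fold change of 1.25 (adjusted p = 0.0991).

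Of the P2Y receptors, 6 of 8 tested were higher. P2ry12, the ADP receptor that guides microglial processes, rose from 38.6 to 47.8 CPM (log2 fold change 0.31, adjusted p = 0.0382), and its relative P2ry13 from 12.1 to 26.0 CPM (1.10, adjusted p = 0.00247). Gpr17, a related receptor of oligodendrocyte precursors, rose from 53.0 to 103.1 CPM (0.96, adjusted p = 0.00061). The 95% interval of P2ry12 lay below those of P2ry6 and P2ry13. Adora2b, the low-affinity adenosine receptor, rose from 4.05 to 6.08 CPM (0.59, adjusted p = 0.0256).

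Of the genes for nucleotide release, 2 of 6 tested were higher. Gja1, the connexin of astrocytes, rose from 189.9 to 388.1 CPM (log2 fold change 1.03, adjusted p = 5.7e-05), and Lrrc8a, a subunit of volume-regulated anion channels, by a log2 fold change of 0.48 (adjusted p = 0.0338). Panx1, the ATP-permeable pannexin channel, had a log2 fold change of -0.05 (adjusted p = 0.732), with a 95% interval from -0.27 to 0.17.

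Of the extracellular enzymes, 4 of 10 tested were higher. Beside Entpd1 these were Entpd2, which favours ATP over ADP (4.59 to 9.80 CPM, log2 fold change 1.09, adjusted p = 0.00165), Enpp1, which forms AMP and pyrophosphate from ATP (4.87 to 10.4 CPM, 1.10, adjusted p = 0.00211), and the nucleotidase Cant1 (0.28, adjusted p = 0.0272). Enpp2, the abundant lysophosphatidic acid-forming member of the family, was at 652.5, 235.5 and 255.8 CPM in sham brain and at 610.5, 695.2 and 617.9 CPM after injury (log2 fold change 0.75, adjusted p = 0.136). SH_WT 1 was high in it and also in the summed choroid plexus markers. Of the 4 intracellular relatives tested, Entpd5 was higher (0.29, adjusted p = 0.0352).

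Of 10 genes tested for adenosine uptake and removal, 6 were higher. Slc29a3, the lysosomal nucleoside transporter, rose from 14.4 to 37.1 CPM (log2 fold change 1.37, adjusted p = 1.9e-05), and Pnp, the phosphorylase that splits inosine, from 4.39 to 9.93 CPM (1.18, adjusted p = 0.0014). The transporters of the cell surface Slc29a1 (0.61, adjusted p = 0.00837), Slc29a4 (0.62, adjusted p = 0.0397) and Slc28a2 (0.99, adjusted p = 0.0373) followed, and the adenosine kinase Adk rose by a log2 fold change of 0.26 (adjusted p = 0.0324). Slc29a4 was at 9.63, 8.84 and 5.75 CPM in SH_WT 1, 2 and 3, whose summed choroid plexus markers were 1094, 22.6 and 59.5 CPM. SH_WT 1 was thus the highest in each, but SH_WT 2, with the smallest marker sum, did not have the least Slc29a4.

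**Figure D3:**
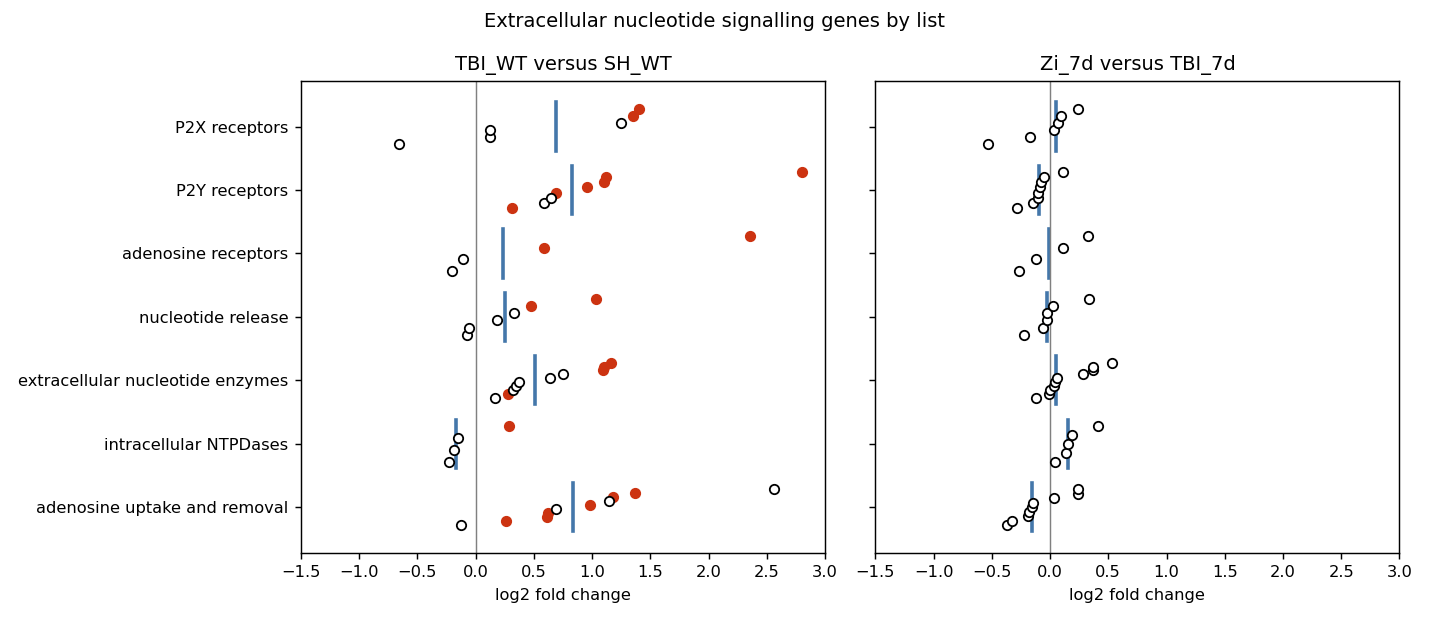
Log2 fold change (horizontal axis) of each tested gene of 7 lists of extracellular nucleotide signalling, the 10 genes included, in both comparisons. Filled red points have an adjusted p under 0.05 and open points do not, and blue bars are list medians. After injury (left) 23 of 48 genes were called, all higher, where 16.8% of all genes tested were called higher. With zileuton (right) 0 of 48 were called.

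Markers of several cell types moved with the injury. All 14 markers of microglia and macrophages were higher, with a median log2 fold change of 2.70, and their sum went from 433.5 to 521.3 CPM in sham brain to 2284 to 3546 CPM after injury. All 8 monocyte markers were higher (33.4 to 38.3 CPM summed in sham brain and 610.7 to 1302 CPM after injury), as were all 6 neutrophil markers tested (0.649 to 1.41 CPM and 17.4 to 66.7 CPM). Of 10 neuronal markers 5 were lower and none higher, with a median of -0.38, and of 8 markers each of astrocytes, oligodendrocytes and endothelial cells 5 were higher, with medians of 0.52, 0.67 and 0.62. Of 8 markers of fibroblasts and meninges 5 were higher (median 1.43, summed 194.1 to 200.9 CPM in sham brain and 254.6 to 825.1 CPM after injury), and of 8 choroid plexus markers 1 was (median 1.58). In such tissue more cells of a type and more RNA per cell cannot be told apart.

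Set against the summed microglia and macrophage markers, a measure chosen after the values had been seen, most of the 10 genes were lower after injury. The sum changed more than they did, but not every marker in it. The log2 fold change was 3.25 for C1qa, the marker with the most CPM after injury, but 0.94 for Tmem119 and 0.93 for Sall1. The latter 2 were below P2rx4 (1.40), P2rx7 (1.35) and Entpd1 (1.16), and the other markers above them. The ratios given here are to the sum of all 14 markers, and other sums were not tried. The log2 ratio differed by -1.12 for P2rx4, -1.18 for P2rx7 and -1.37 for Entpd1 (TBI_WT minus SH_WT), each with groups that did not overlap. P2ry6 and Adora3 were the exceptions, with differences of 0.32 and 0.00 and overlapping groups. Within groups, over the 12 libraries and after subtraction of group means, the log2 CPM of P2rx7, Entpd1, P2ry6 and P2rx4 had Pearson r of 0.89, 0.85, 0.79 and 0.74 with these markers, and P2rx4, P2rx7 and Entpd1 had 0.89, 0.88 and 0.87 with the monocyte markers. With the astrocyte markers P2rx7 had 0.76 and Entpd1 0.71. With the neuronal markers Adora1 had 0.74, and the others of the 10 genes had negative values, from -0.62 (P2ry2) to -0.14 (Entpd1). The points share library and depth, and the part of cell numbers in the changes of these genes was not tested.

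The genes whose log2 CPM followed 9 of the 10 most closely were taken from 16516 genes, as a description. Pearson r was taken over the same 12 libraries after subtraction of group means. For Adora2a they were Syndig1l (0.99), Drd2 (0.988) and Nrsn2 (0.987), and for Nt5e Plppr3 (0.979), 4833415N18Rik (0.972) and 4833418N02Rik (0.971). For P2rx4 they were Cd22 (0.98), Slc25a20 (0.971) and Fblim1 (0.97), and for P2rx7 Mitf (0.979), Capns1 (0.965) and Ctsa (0.958). For P2ry6 they were Ticam2 (0.979), Egfr (0.973) and Nradd (0.963), and for Entpd1 Hist2h2be (0.984), Renbp (0.975) and Ddost (0.97). For Adora3 they were Shkbp1 (0.952), Bcl2l11 (0.947) and C230062I16Rik (0.931), for Adora1 Car7 (0.956), Dhx33 (0.95) and Mid1-ps1 (0.949), and for P2ry2 St6galnac2 (0.93), Sept10 (0.929) and Rab20 (0.929).

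The second comparison asked whether zileuton changed these genes in injured brain. None of the 10 was called, at an adjusted p under 0.05 or at an unadjusted p under 0.05 (edgeR, 17363 genes tested), and in none were the groups apart. Over all genes 0% passed the adjusted threshold and 6.83% the unadjusted one, the groups did not overlap for 13.6%, and DESeq2 called 28 genes, none of them among the 10. The median log2 fold change was 0.01 over the 10 genes and 0.00 over all genes.

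P2rx4 was at 19.8, 25.5 and 32.6 CPM in the TBI_7d libraries 2, 3 and 6 and at 27.8, 20.8 and 20.5 CPM in the Zi_7d libraries of the same numbers. The groups overlapped widely, and the log2 fold change was -0.17 with a 95% interval from -0.62 to 0.27 (unadjusted p = 0.401). P2rx7 was at 17.9, 22.5 and 24.1 CPM and at 25.8, 21.1 and 21.7 CPM. TBI_7d 2 was the lowest and Zi_7d 2 the highest library, and the log2 fold change was 0.09, from -0.22 to 0.41.

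P2ry6 was at 16.5, 17.2 and 23.6 CPM without and at 21.3, 12.7 and 13.1 CPM with zileuton. The libraries Zi_7d 3 and 6 were below all TBI_7d libraries and Zi_7d 2 among them, and the log2 fold change was -0.29, from -0.80 to 0.23 (unadjusted p = 0.239). P2ry2 was at 1.34, 1.20 and 1.78 CPM without and at 1.91, 1.73 and 1.01 CPM with zileuton, on 29 to 58 counts per library. The treated libraries held both the highest and the lowest value, and the log2 fold change was 0.11, from -0.61 to 0.83. The summed choroid plexus markers were 11.8, 481.2 and 1070 CPM without and 1488, 1297 and 15.4 CPM with zileuton. P2ry14 was at 2.33, 2.95 and 3.21 CPM and at 2.66, 2.58 and 2.65 CPM, with the treated libraries inside the range of the others, and had a log2 fold change of -0.11, from -0.56 to 0.35.

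Entpd1 was at 23.7, 30.6 and 34.2 CPM without and at 32.3, 28.4 and 29.6 CPM with zileuton. The treated libraries lay inside the range of the others on this scale, and the log2 fold change was 0.03, from -0.28 to 0.34. In the deposited TPM, which also divide by the length of the transcripts, it was at 13.3, 19.3 and 19.6 and at 19.1, 25.7 and 29.6, and limma on log2(TPM + 1) gave a log2 fold change of 0.49 (unadjusted p = 0.0491, adjusted p = 0.734). The number of counts per TPM of Entpd1 differed up to 1.79-fold between these 6 libraries, against a median of 1.09-fold over all genes and 1.60-fold at the 95th percentile. It differed up to 2.09-fold for P2ry2 and 1.47-fold for P2rx7, and in the FPKM of the 2018 table no more than 1.0-fold for any of the 10. A level per length of these genes in the 2022 table thus depended on the length assigned to them in each library, and the cause was not tested.

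Nt5e was at 11.4, 10.6 and 10.3 CPM without and at 8.35, 12.5 and 11.3 CPM with zileuton. The treated libraries spanned the others, and the log2 fold change was -0.01, from -0.37 to 0.35. The log2 ratio of Nt5e to Entpd1 in TPM was -1.33, -1.99 and -2.14 and -2.26, -2.14 and -2.51, and the means differed by -0.48 (Zi_7d minus TBI_7d, exact permutation test, two-sided, p = 0.2). From CPM the difference was -0.07.

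Adora1 was at 254, 257.6 and 236.7 CPM and at 279, 256.9 and 270.5 CPM, with a log2 fold change of 0.11, from -0.06 to 0.28 (unadjusted p = 0.186). Its interval was the narrowest of the 10 and ran from 0.957-fold to 1.21-fold. Adora3 was at 3.26, 3.32 and 4.07 CPM and at 3.85, 3.46 and 2.44 CPM, with a log2 fold change of -0.12, from -0.63 to 0.38.

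Adora2a was at 104.2, 104.0 and 128.7 CPM without and at 89.5, 173.3 and 159.6 CPM with zileuton. The libraries Zi_7d 3 and 6 were the highest and Zi_7d 2 the lowest of the 6, and the log2 fold change was 0.33, from -0.19 to 0.84 (unadjusted p = 0.181). The summed striatal markers had the same order within the treated group, at 2121, 3830 and 3614 CPM against 2318, 2933 and 2668 CPM, and per these markers the groups differed by 0.04 on the log2 scale. Without Zi_7d 2 the log2 fold change was 0.57 for Adora2a (unadjusted p = 0.00121, adjusted p = 0.298) and -0.57 for P2ry6 (unadjusted p = 0.0116, adjusted p = 0.379).

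**Figure D4:**
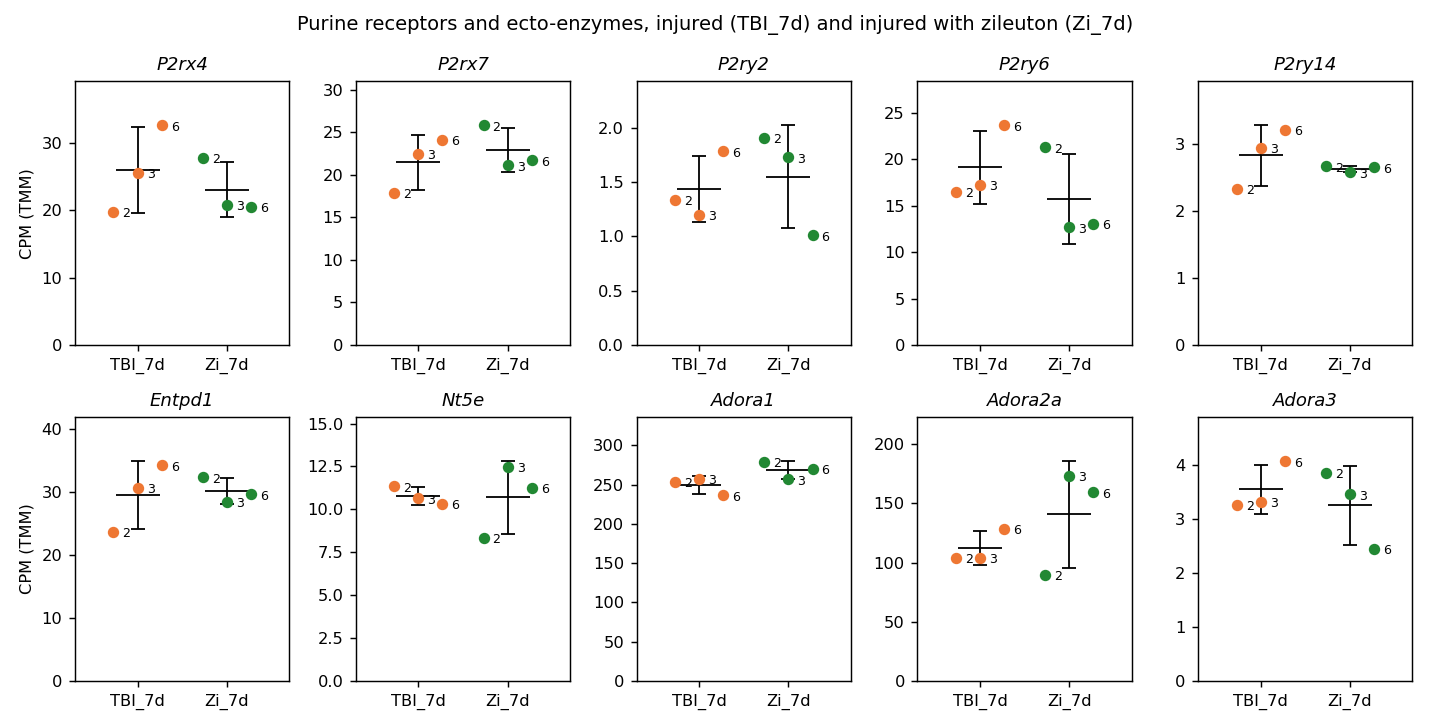
CPM (vertical axis, TMM-scaled, from 0) of the 10 genes in the 3 TBI_7d and 3 Zi_7d libraries, numbered as in the header of the table, with a horizontal bar for the mean and a vertical bar for the SD. The groups overlap in all 10 panels.

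The share of Adora1 in the summed TPM of the adenosine receptors was 52.5%, 51.9% and 45.1% without and 59.0%, 43.3% and 43.3% with zileuton. The treated libraries lay on both sides of the others, and the means differed by -1.31 percentage points (exact permutation test, two-sided, p = 0.8). Of the 48 genes of the pathway lists tested, the 10 included, 0 had an unadjusted p under 0.05, where 6.83% of all genes had. The groups did not overlap for 3 of the 48, all lower, and for 13.6% of all genes. The count at an unadjusted p under 0.05 was 5 of 48 without Zi_7d 2 (10.4%, against 10.8% of all genes in that fit), 3 of 49 without TBI_7d 2 (6.12%, against 6.12%) and 1 of 49 without Zi_7d 6 (2.04%, against 4.39%). The summed microglia and macrophage markers were 2114, 3021 and 3449 CPM without and 3207, 2400 and 2070 CPM with zileuton. The summed monocyte markers were 426, 746.3 and 1288 CPM and 890, 442.3 and 452.3 CPM. None of these genes passed an adjusted p of 0.05, and neither did any other gene (edgeR). At an unadjusted p under 0.05, 1 of 14 microglia and macrophage markers was lower, Aif1 (log2 fold change -0.59). Of 8 monocyte markers 2 were lower, Chil3 (-1.59) and Ly6c2 (-1.11). None of either list was higher, and 6.83% of all genes were under 0.05.

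**Figure D5:**
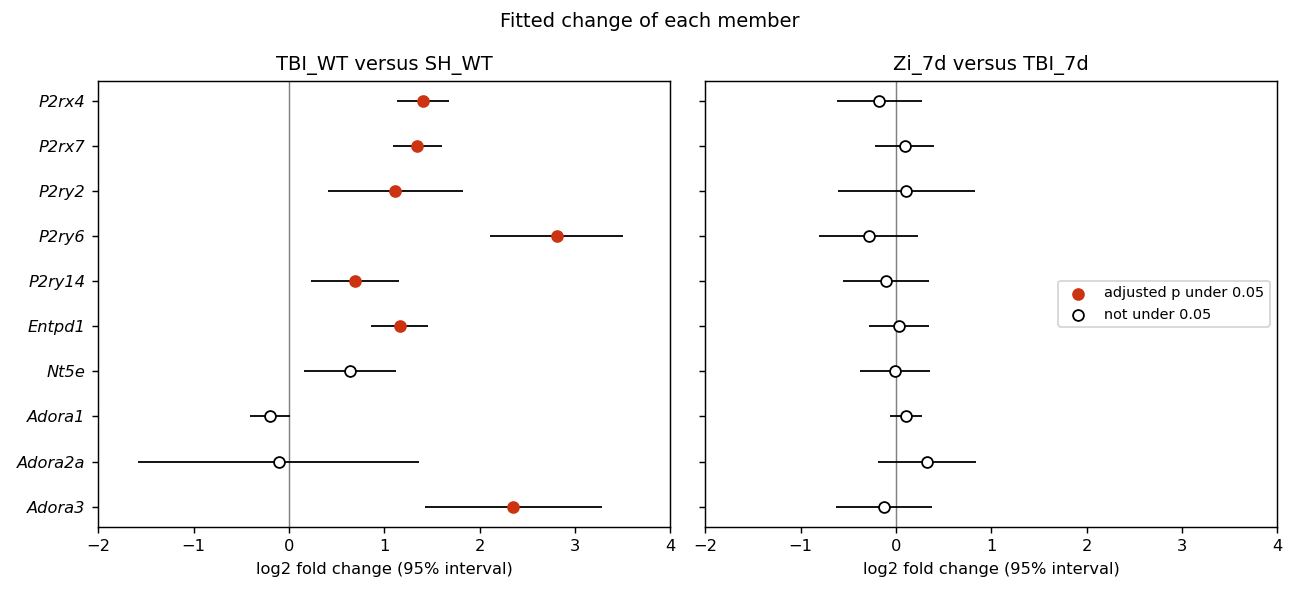
Fitted log2 fold change of each of the 10 genes (horizontal axis) with its 95% interval, after injury (left) and with zileuton in injured brain (right). Filled red points have an adjusted p under 0.05. On the left 7 points are filled, from 0.69 for P2ry14 to 2.81 for P2ry6, and on the right all intervals include 0.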

How the data were processed

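RNA of mouse brain was sequenced in 12 libraries, in 4 groups of 3. The authors deposited gene counts with FPKM for SH_WT and TBI_WT, and estimated counts with TPM for TBI_7d and Zi_7d, of which 13.0% to 15.2% per library were not whole and were rounded before testing. The submitters' processing notes name HISAT2, featureCounts, Subread, DESeq2 and GRCm39, with roles and versions not given in the sources used here. The table of the zileuton experiment held 223 identifiers of assembled transcripts (MSTRG), which stayed in.

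Each comparison was fitted alone, since table and batch differed, with edgeR 4.0.16 in R 4.3.3 (TMM, filterByExpr, quasi-likelihood test, Benjamini-Hochberg over all genes tested). The script was tested on simulated counts with known changes. CPM are TMM-scaled. Shares and ratios were set on FPKM or TPM and tested by exact permutation (scipy 1.17.1). Library pairs within groups differed by more than sampling noise (chi-square per degree of freedom 9.72 to 40.3), so no library was taken as a copy of another. P-values measure only the spread between these libraries. No pairing of the libraries by the shared numbers was seen, though so few libraries cannot exclude one. Limits from depth cover counting error only.

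The genes, pathway lists and marker lists were chosen with earlier results of these data known. Named were all 10 genes in every library, pathway genes called in either comparison, leading markers, the 3 genes most like each member, and Gfap and Cd68. Alternatives were other normalizations and filters, DESeq2 1.42.0, limma 3.58.1 on log2(FPKM or TPM + 1) and + 0.1 with a mean of at least 0.5, an equal-variance test, a gene length correction, a replicate block and leaving out libraries. The genes most like P2ry14 are not reported here. Protein sequences were not used here.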

Additional observations from a re-analysis of the deposited data

How the results depend on the processing

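After injury the 7 calls among the 10 genes became 4 with limma on log2(FPKM + 1) or log2(FPKM + 0.1) and 4 with the equal-variance test, all of which left out P2ry2, P2ry14 and Adora3 as too low, and 5 to 8 when 1 library was left out. The 23 calls among pathway genes became 12 with the equal-variance test, 15 without SH_WT 3 and TBI_WT 2 together, and 15 to 19 with 1 library left out, the lowest without SH_WT 2. Over all genes the calls ranged from 2625 to 6225. P2rx4, P2rx7, P2ry6, Entpd1 and Adora3 kept direction and call under every alternative they entered. Nt5e also passed with library totals alone (adjusted p = 0.0442), without a filter (0.0404), with a robust fit (0.0438) and with the length trend removed (0.0429). The log2 fold change of Adora2a ranged from -1.39 to 0.48 with 1 library left out.

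No pairing by the replicate numbers shared by the groups was seen, though 3 libraries per group are too few to exclude one. The correlation of deviations was -0.09 to -0.02 for sham and injured and -0.28 to 0.06 for the zileuton experiment. Only number 3 of the zileuton experiment was closest to its own number. With the replicate block, 5 of the 10 genes and 16 pathway genes were called after injury, P2ry2 (adjusted p = 0.0708) and P2ry14 (0.0584) not among them, and none of the 10 with zileuton.

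With zileuton the count of the 10 genes at an unadjusted p under 0.05 was 1 (Entpd1) with limma at either pseudocount and 0 to 2 with 1 library left out, and the pathway count was 1 with limma at either pseudocount, 1 with the equal-variance test and 0 to 5 with 1 library left out. The highest of these counts came without Zi_7d 2, where 10.8% of all genes were under 0.05 unadjusted. The shares over all genes under limma and the equal-variance test are not given here. Directions near 0 were not stable. Nt5e had a log2 fold change of 0.028 with limma and a pseudocount of 1, filtered or not, 0.0309 with 0.1, 0.0458 with the equal-variance test, and -0.13 to 0.14 with 1 library left out, where P2rx4 ranged from -0.33 to 0.0229, P2rx7 from -0.0238 to 0.18, P2ry2 from -0.0635 to 0.34, Entpd1 from -0.10 to 0.15 and Adora3 from -0.26 to 0.047. The difference in the Adora1 share ranged from -8.42 to 9.83 percentage points after injury and from -6.54 to 1.31 with zileuton. P2ry2 rested on 21 to 64 counts per library of 2018 and 29 to 58 of 2022, which limits the precision of its values.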
